A study of Mus musculus with 12 samples.

Results

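Dio2, Gsn, Mmp3 and Pdk4 are 4 genes that the study of these tumors joined into a signature of chemoimmunotherapy. They were chosen by the study on measured values, as higher in tumors given DOX + anti-PD-1 compared with anti-PD-1 alone, and then, among the genes higher there, for a link with the survival of patients, so the values of that comparison are a description here and support nothing. All 4 were found by their symbols among the 21960 genes listed for each tumor. Their levels are given in all 4 treatment groups, together with those of Adipoq, the hormone adiponectin made by fat cells, and Dcn, the matrix proteoglycan decorin made by fibroblasts. RNA from 12 whole mammary tumors was sequenced, with 3 tumors in each group and 1 tumor in each library. Whether each tumor came from a separate mouse was not found in the labels or methods, and the p-values treat the tumors as independent. The mice were females on a C57BL/6 background that carry the polyoma middle T oncogene under the MMTV promoter, which drives it in the mammary epithelium, and their ages at sampling were not given in the sources used here. IgG1 tumors came from mice given the control antibody, and anti-PD-1 tumors from mice given the antibody 4H2 against the checkpoint receptor PD-1, in both cases from a tumor diameter of 0.6 cm and with a first dose of 20 mg/kg followed by 10 mg/kg. DOX + IgG1 and DOX + anti-PD-1 tumors came from mice that received 5 mg/kg of the topoisomerase poison doxorubicin once a week for 5 weeks and, 1 day after doxorubicin, 10 mg/kg of the same antibodies, from a diameter of 1 cm. The labels give 5 weeks of treatment for all groups, whereas the protocol describes another antibody schedule without doxorubicin. A difference between a group with doxorubicin and a group without it therefore cannot be told apart from starting size, first antibody dose and schedule.

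The 4 proteins have different tasks. Type 2 deiodinase, encoded by Dio2, is a selenoenzyme that turns thyroxine into the active hormone triiodothyronine inside the cell, and it is well known from brown fat and the pituitary. Pyruvate dehydrogenase kinase 4, encoded by Pdk4, phosphorylates and thereby inhibits the pyruvate dehydrogenase complex, and it is induced by fasting in muscle, heart and fat. Gelsolin, encoded by Gsn, severs and caps actin filaments and also exists as a secreted plasma form. Stromelysin-1, encoded by Mmp3, is a secreted protease that cleaves matrix proteins and activates other metalloproteases, and in the mammary gland it is made mainly by stromal cells.

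Levels are TPM, obtained by reversing the deposited log2 step. A log2 fold change is the mean log2(TPM + 1) of one group minus that of the other, which understates the change of genes with low levels. TPM do not hold the depth of sequencing, which is unknown. Per tumor, the listed TPM added up to 609418 at the lowest and 725506 at the highest. The label of a mammary epithelial tumor fitted the markers, since Epcam lay between 418 and 954 TPM, Krt8 between 230.5 and 606 TPM and Krt18 between 376 and 750 TPM in the 12 tumors. The library of DOX + IgG1 replicate 1 differed somewhat from the others. Its median correlation with the other tumors across expressed genes was 0.884, the lowest of the 12 but close to that of DOX + anti-PD-1 replicate 3 (0.888), it had 8104 genes listed at 0, the most of the 12, and the header of its value column carries the added word test, whose meaning is not given. The headers of the 3 DOX + anti-PD-1 tumors end in another suffix than those of the other 9 tumors. What the suffix marks is not given, and it cannot be told apart from that group. The 6 tumors of IgG1 and DOX + IgG1 share 1 suffix.

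The stretch in front of each gene's start was searched because the 4 genes were joined into 1 signature, and RefSeq (GRCm38.p6) gave a promoter window for all 4. The 250 bases before the start were searched on both strands for TGANTCA, the AP-1 motif, TGACGTCA, the cyclic AMP response element, TATAAA, the TATA box, and GTAAACA, a FOXO motif, and none of these motifs contains another. Of 32851 promoter windows, 6.75% held the AP-1 motif, 1.55% the cyclic AMP response element, 12.4% the TATA box and 3.17% the FOXO motif. The 150 bases next to the start are printed 5′ to 3′ on the strand of the gene, with matches in capitals. They are printed for Dio2, on the minus strand (chr12:90739039-90739188), and Mmp3, on the plus strand (chr9:7445672-7445821), the members with a match.
Dio2: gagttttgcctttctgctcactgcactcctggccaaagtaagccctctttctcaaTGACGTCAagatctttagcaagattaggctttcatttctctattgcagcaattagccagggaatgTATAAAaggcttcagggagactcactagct
Mmp3: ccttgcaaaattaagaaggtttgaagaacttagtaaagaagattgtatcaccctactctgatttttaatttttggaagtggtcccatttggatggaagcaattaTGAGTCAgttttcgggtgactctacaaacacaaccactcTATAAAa
The RefSeq start of Dio2, next to the printed stretch, lies upstream of its GENCODE start, at 90738438, and positions are counted from the RefSeq start. Dio2 held the cyclic AMP response element 95 to 88 bases and TATAAA 30 to 25 bases before its start. Mmp3 held the AP-1 motif as TGAGTCA 46 to 40 bases and TATAAA 7 to 2 bases before its start. No match was found in the window of Pdk4 or in the 3 windows of Gsn. No motif was thus present in all 4 genes. A match describes the letters and does not show that a factor binds.

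Dio2 (ENSMUSG00000007682) is annotated on chromosome 12 from 90724552 to 90738438 on the minus strand (GRCm38), and 238 bases at this GENCODE start overlap the noncoding gene Gm26512 on the other strand. The library kit keeps the strand, but whether counting used it is not given, so reads in the overlap are uncertain. Dio2 had 1.78, 3.90 and 3.68 TPM in IgG1 replicates 1, 2 and 3 and 3.55, 2.21 and 3.31 TPM in the anti-PD-1 tumors. With doxorubicin its levels were 2.28, 6.31 and 5.42 TPM (DOX + IgG1) and 6.26, 14.9 and 7.95 TPM (DOX + anti-PD-1). DOX + IgG1 replicates 2 and 3 were therefore above all 6 tumors without doxorubicin, while replicate 1 lay among them. The order by mean was DOX + anti-PD-1 (9.70 ± 4.58 TPM, SD, n = 3), DOX + IgG1 (4.67 ± 2.12), IgG1 (3.12 ± 1.17) and anti-PD-1 (3.02 ± 0.715), and the ranges of neighbouring groups overlapped at each step.

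Pdk4 (ENSMUSG00000019577, chromosome 6, 5483351 to 5496309, minus strand) had levels of 2.63, 1.71 and 5.90 TPM (IgG1) and 1.38, 0.88 and 1.60 TPM (anti-PD-1). With doxorubicin they were 1.28, 8.49 and 1.71 TPM (DOX + IgG1) and 20.0, 2.92 and 12.4 TPM (DOX + anti-PD-1). A single tumor was high in IgG1 and in DOX + IgG1, 2 were high in DOX + anti-PD-1, and replicate 2 of that group lay below IgG1 replicate 3. By mean the order was DOX + anti-PD-1 (11.8 ± 8.56 TPM, SD, n = 3), DOX + IgG1 (3.83 ± 4.04), IgG1 (3.41 ± 2.20) and anti-PD-1 (1.29 ± 0.369). The ranges overlapped at each step but the last, where all 3 anti-PD-1 tumors lay below all 3 IgG1 tumors. Among 13692 genes tested, 6.24% lay lower without overlap in that comparison and 3.64% higher. Adipoq also had a lower mean in anti-PD-1 than in IgG1 (log2 fold change -0.87, SE 0.48), with overlap.

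Gsn (ENSMUSG00000026879, chromosome 2, 35256380 to 35307892, plus strand) had the highest mean of the 4 over the 12 tumors, on the per-length scale of TPM, although Mmp3 exceeded it in DOX + anti-PD-1 replicate 2. Without doxorubicin its levels were 55.6, 71.6 and 116 TPM (IgG1) and 64.5, 52.5 and 58.3 TPM (anti-PD-1). With doxorubicin they were 77.3, 893 and 275 TPM (DOX + IgG1) and 253, 86.9 and 196 TPM (DOX + anti-PD-1). Both of the highest values were thus found in DOX + IgG1 tumors, which had not received anti-PD-1. The order by mean was DOX + IgG1 (415 ± 425 TPM, SD, n = 3), DOX + anti-PD-1 (178.5 ± 84.3), IgG1 (81.1 ± 31.5) and anti-PD-1 (58.4 ± 6.01), with overlapping ranges at each step.

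Mmp3 (ENSMUSG00000043613, chromosome 9, 7445822 to 7455975, plus strand) had levels of 40.0, 27.6 and 75.7 TPM (IgG1) and 21.8, 27.6 and 33.0 TPM (anti-PD-1). With doxorubicin they were 40.3, 104.8 and 68.1 TPM (DOX + IgG1) and 45.7, 126.7 and 99.0 TPM (DOX + anti-PD-1). IgG1 replicate 3 lay above DOX + anti-PD-1 replicate 1. By mean the order was DOX + anti-PD-1 (90.5 ± 41.1 TPM, SD, n = 3), DOX + IgG1 (71.1 ± 32.3), IgG1 (47.8 ± 25.0) and anti-PD-1 (27.5 ± 5.60), with overlap at each step. Over the 12 tumors the highest level was 8.37 times the lowest for Dio2, 5.81 times for Mmp3, 17.0 times for Gsn and 22.7 times for Pdk4.

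**Figure D1:**
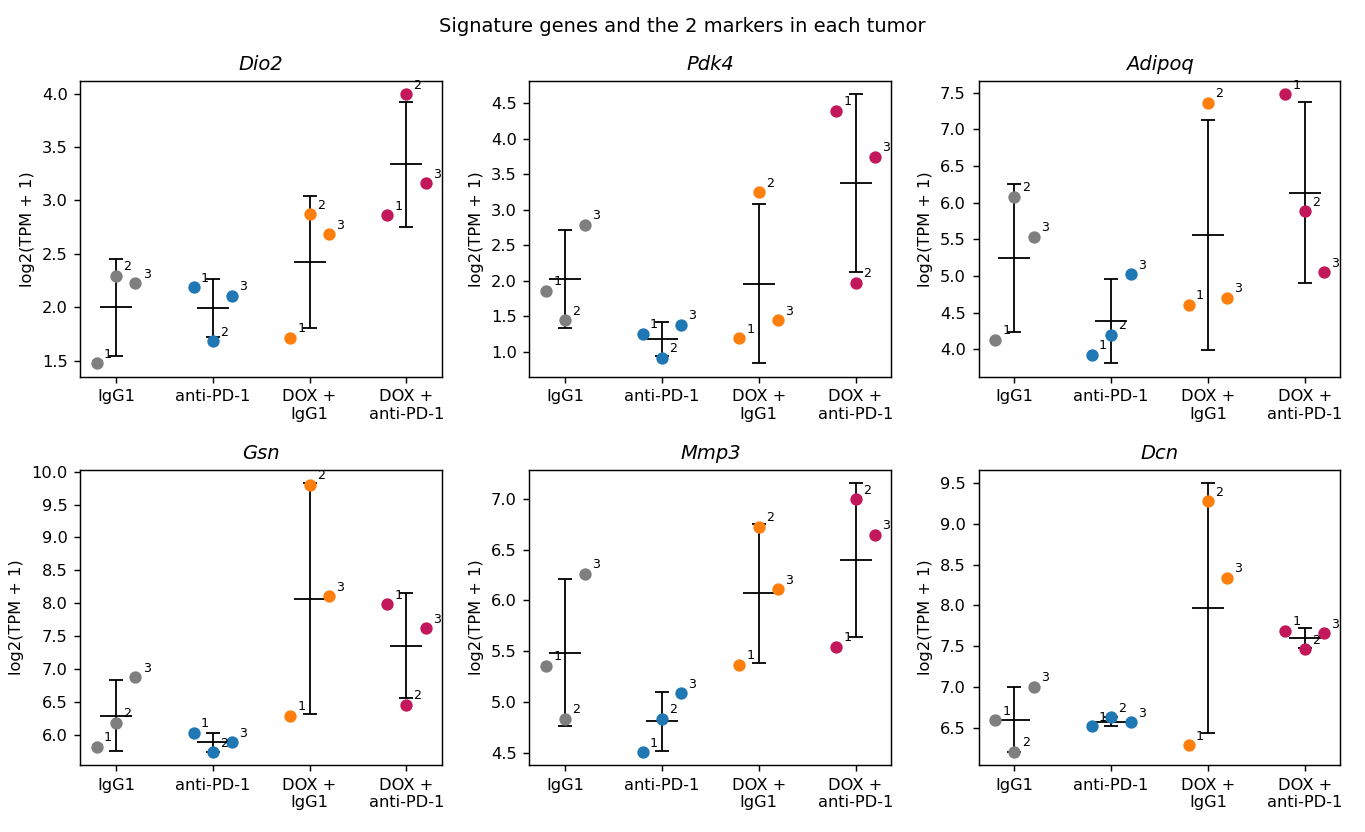
Level of the 4 signature genes, Adipoq and Dcn in each tumor, as log2(TPM + 1) on the vertical axis by group, with the replicate number beside each point and the group mean and SD (n = 3) as a bar. DOX + IgG1 replicate 1 sits near the tumors without doxorubicin in each panel, and replicate 2 is the highest of the 12 tumors for Gsn (893 TPM) and Dcn (619 TPM).

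DOX + IgG1 against IgG1 is the comparison that shares no tumor with the one that chose the genes, and it asks whether the 4 genes differed with doxorubicin in the absence of anti-PD-1. Of the 4 genes, 0 were called by limma (adjusted p under 0.1, log2 fold change beyond 1 in either direction), against 5 of all 13874 genes tested (0.036%), and 1073 genes had an unadjusted p below 0.05. The log2 fold change of Gsn was 1.78 (SE 0.74, 95% interval 0.09 to 3.46, adjusted p = 0.626 with limma), higher in 2 of 3 DOX + IgG1 tumors than in any IgG1 tumor, and 106 of the 13874 genes had a larger one. Mmp3 had a log2 fold change of 0.58 (SE 0.44, adjusted p = 0.783 with limma), with 1 of 3 tumors above all IgG1 tumors, and Dio2 one of 0.42 (SE 0.49, adjusted p = 0.853 with limma), with 2 of 3. For Pdk4 it was -0.07 (SE 0.65, 95% interval -1.55 to 1.41, adjusted p = 0.988 with limma), with 1 of 3. The exact permutation test, two-sided, gave p = 0.2 for Gsn, 0.4 for Mmp3, 0.4 for Dio2 and 1 for Pdk4, where 0.1 is the smallest that 3 tumors against 3 allow. The groups overlapped for all 4 genes, and of all genes tested 9.31% lay higher without overlap and 4.64% lower, so that 0 of 4 is near the share over all genes. These p-values measure the spread between tumors, and the intervals of Dio2, Mmp3 and Pdk4 include log2 fold changes above 1 as well as below 0.

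1 library decided the call of Gsn. Without DOX + IgG1 replicate 1 its log2 fold change was 2.66 (SE 0.49, limma adjusted p = 0.0743), past both limits, while the number of genes called over the whole table went from 5 to 113. Without DOX + IgG1 replicate 2 it was 0.91 (SE 0.54, adjusted p = 0.854 with limma) and 2 genes were called. The log2 fold changes without replicate 1 were 0.78 for Dio2, 0.93 for Mmp3 and 0.31 for Pdk4, none of them called. Pdk4 thereby turned from a negative to a positive sign, and it did so as well without IgG1 replicate 3 (0.31) or DOX + IgG1 replicate 3 (0.19). The 5 called genes were named after their values were seen. They were Bpifa2 and Smr3a, both known from salivary glands and listed at 0 in all 3 IgG1 tumors, and the lower Saa1, Saa2 and Hist1h2af. None of them belongs to a list used here.

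The remaining comparisons hold tumors that chose the genes and are given without a test. In DOX + anti-PD-1 against anti-PD-1 all 4 genes lay higher without overlap, in the direction for which they were chosen, beside 11.1% of 13736 genes higher and 3.84% lower. Their log2 fold changes were 1.35 for Dio2 (SE 0.42), 2.19 for Pdk4 (SE 0.60), 1.47 for Gsn (SE 0.36) and 1.58 for Mmp3 (SE 0.37). Adipoq and Dcn lay higher without overlap in the same comparison, with log2 fold changes of 1.76 (SE 0.56) and 1.03 (SE 0.20). Between the groups with doxorubicin, DOX + anti-PD-1 against DOX + IgG1, the 4 genes all overlapped, beside 4.27% of 13946 genes higher without overlap and 5.95% lower. There the log2 fold change was 0.92 for Dio2 (SE 0.50), 1.41 for Pdk4 (SE 0.77), 0.33 for Mmp3 (SE 0.45) and -0.71 for Gsn (SE 0.78). The value of Gsn includes the 893 TPM of DOX + IgG1 replicate 2, and the other 5 tumors of these groups lay between 77.3 and 275 TPM, so its sign rests on 1 tumor. In anti-PD-1 against IgG1 the values were -0.01 for Dio2 (SE 0.42), -0.85 for Pdk4 (SE 0.48), -0.40 for Gsn (SE 0.29) and -0.67 for Mmp3 (SE 0.36). Beside them Adipoq had -0.87 (SE 0.48) and Dcn -0.03 (SE 0.25). The log2 fold change with doxorubicin in the presence of anti-PD-1 minus that in its absence, over 12 tumors, was 2.26 for Pdk4 (SE 0.94), 1.00 for Mmp3 (SE 0.62), 0.92 for Dio2 (SE 0.64) and -0.31 for Gsn (SE 0.92). These differences contain the values that chose the genes and were not judged against their SE.

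**Figure D2:**
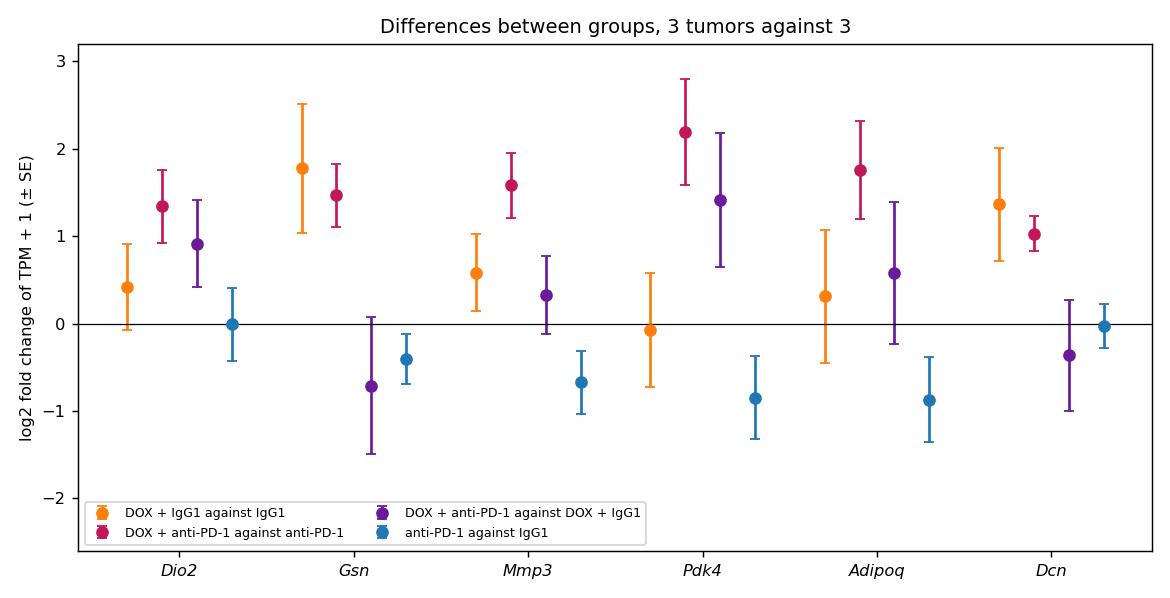
Log2 fold change of TPM + 1 with its SE, on the vertical axis, for the 4 signature genes, Adipoq and Dcn in 4 comparisons of 3 tumors against 3. In DOX + IgG1 against IgG1 the value of Gsn was 1.78 and that of Pdk4 -0.07. The values in DOX + anti-PD-1 against anti-PD-1 (1.47 and 2.19) come from the comparison that chose the genes and support nothing.

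The fat marker Adipoq (ENSMUSG00000022878, chromosome 16, 23146536 to 23158028) had 16.5, 66.7 and 45.4 TPM (IgG1), 14.2, 17.3 and 31.5 TPM (anti-PD-1), 23.4, 164 and 25.1 TPM (DOX + IgG1) and 177, 57.9 and 32.1 TPM (DOX + anti-PD-1). The stroma marker Dcn (ENSMUSG00000019929, chromosome 10, 97479609 to 97518143) had 95.4, 72.9 and 127 TPM (IgG1), 90.9, 98.2 and 93.7 TPM (anti-PD-1), 76.8, 619 and 323 TPM (DOX + IgG1) and 205, 175 and 201 TPM (DOX + anti-PD-1). Adipoq was therefore high in a single tumor of each group with doxorubicin, whereas Dcn was above all tumors without doxorubicin in 5 of the 6 tumors with it, all but DOX + IgG1 replicate 1. The markers correlated with each other with r = 0.57 over the 12 tumors and 0.32 without DOX + IgG1 replicate 2. In bulk tissue, fewer cells of a type and less RNA per cell cannot be told apart.

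Gsn and Dcn had the highest Pearson correlation of the 8 relations over 12 tumors, while by rho Gsn and Mmp3 were equal in their relation to Dcn. Over these tumors Pearson's r of log2(TPM + 1) was 0.94 (permutation p = 8.0e-05, adjusted p = 0.00064 over 8 relations) and Spearman's rho 0.76 (permutation p = 0.00639). Without DOX + IgG1 replicates 2 and 3, the tumors farthest from the median of Dcn, r was 0.82. In the 10 tumors that remain, Dcn is high only in DOX + anti-PD-1 (175 to 205 TPM, against 72.9 to 127 TPM in the others), the group for which the genes were chosen. In this setting r of any member with Dcn therefore partly restates that choice, supports nothing and is given without a p. In the 6 tumors of IgG1 and DOX + IgG1, which had no part in choosing the gene, r was 0.97 (exact permutation p = 0.00694, adjusted p = 0.0556) and rho 0.83 (exact permutation p = 0.0583). There DOX + IgG1 replicates 2 and 3 lay far from the rest, with 619 and 323 TPM of Dcn and 893 and 275 TPM of Gsn. The rest had 72.9 to 127 TPM of Dcn and 55.6 to 116 TPM of Gsn. Permutation in these 6 tumors ran across both groups, so each relation there also holds the difference between the groups. With values centred on the group means r was 0.90 (exact permutation within groups, p = 0.0270, adjusted p = 0.216). Gsn per Dcn ranged from 0.495 to 1.44 over the 12 tumors, a span of 2.91 times, where Gsn alone spanned 17.0 times, and only 3 of 14731 genes had a higher correlation with Gsn than Dcn. The remaining p-values over 12 tumors are likewise no independent test, because 6 of these tumors chose the genes.

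Mmp3 and Dcn had r = 0.73 (permutation p = 0.00558, adjusted p = 0.0223) and rho = 0.76 (permutation p = 0.00607) over 12 tumors, 6 of which chose the genes. Without the 2 tumors farthest from the median of Dcn r was 0.75, a value to which the choice of the genes contributes and that supports nothing. In the 6 tumors of IgG1 and DOX + IgG1 r was 0.87 (exact permutation p = 0.0222, adjusted p = 0.0889) and rho 0.89 (exact permutation p = 0.0333). Centred on group means r was 0.61 (exact permutation within groups, p = 0.0548, adjusted p = 0.219). The relation of Mmp3 to Adipoq was weaker, with r = 0.45 (permutation p = 0.140, adjusted p = 0.140) and rho = 0.53 (permutation p = 0.0790), and centred on group means r was 0.07. In DOX + anti-PD-1 replicate 1, which had the highest Adipoq of the 12 tumors, Mmp3 was the lowest of its group. Without the 2 tumors farthest from the median of Adipoq, DOX + IgG1 replicate 2 and DOX + anti-PD-1 replicate 1, r was 0.48 (permutation p = 0.157).

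Pdk4 had r = 0.71 with Adipoq (permutation p = 0.0114, adjusted p = 0.0287) and rho = 0.72 (permutation p = 0.0106) over 12 tumors, 6 of which chose the genes. Adipoq itself lay higher without overlap in the comparison that chose them. The p-values of Pdk4 and Gsn with Adipoq over 12 tumors therefore partly restate that choice. Without DOX + IgG1 replicate 2 and DOX + anti-PD-1 replicate 1, r of Pdk4 with Adipoq was 0.34 (permutation p = 0.344), so by Pearson's r this relation rests on those tumors, whose removal also narrows the range of Adipoq. With only the former left out r was 0.68, and with only the latter 0.55. By Pearson's r the same held for Gsn and Adipoq, with r = 0.68 (permutation p = 0.0144, adjusted p = 0.0287) and rho = 0.65 (permutation p = 0.0255) over 12 tumors and r = 0.22 (permutation p = 0.544) without these tumors. In the 6 tumors of IgG1 and DOX + IgG1 r was 0.68 for Pdk4 (exact permutation p = 0.142) and 0.69 for Gsn (exact permutation p = 0.118), with rho of 0.49 (exact permutation p = 0.333) and 0.60 (exact permutation p = 0.242). Pdk4 and Dcn had r = 0.57 (permutation p = 0.0481, adjusted p = 0.0641) and rho = 0.67 (permutation p = 0.0209). Without DOX + IgG1 replicates 2 and 3 their r was 0.85, again a value to which the choice of the genes contributes and that supports nothing. DOX + IgG1 replicate 3 combined the second highest Dcn (323 TPM) with a low Pdk4 (1.71 TPM). In the 6 tumors r for Pdk4 and Dcn was 0.61 (exact permutation p = 0.169).

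Dio2 had r = 0.55 with Adipoq (permutation p = 0.0649, adjusted p = 0.0742) and rho = 0.72 (permutation p = 0.0110), and r = 0.60 with Dcn (permutation p = 0.0419, adjusted p = 0.0641) and rho = 0.62 (permutation p = 0.0341). Without the 2 tumors farthest from the median of the marker, r was 0.59 with Adipoq (permutation p = 0.0711) and 0.77 with Dcn. To the latter the choice of the genes contributes, and it supports nothing. DOX + anti-PD-1 replicate 2 had the highest Dio2 (14.9 TPM) at 57.9 TPM of Adipoq and 175 TPM of Dcn. In the 6 tumors of IgG1 and DOX + IgG1 r was 0.73 with Adipoq (exact permutation p = 0.0958) and 0.81 with Dcn (exact permutation p = 0.0667), and rho was 0.83 (exact permutation p = 0.0583) and 0.60 (exact permutation p = 0.242). In these 6 tumors, 0 of the 8 relations had an adjusted p below 0.05, and with values centred on the group means 0 of 8 did so. Within the 9 tumors that share a header suffix, a split chosen after the data were seen, r ranged from 0.63 for Mmp3 and Adipoq to 0.96 for Gsn and Dcn. These tumors include the anti-PD-1 tumors that had a part in choosing the genes, and the other suffix holds tumors of 1 group only.

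**Figure D3:**
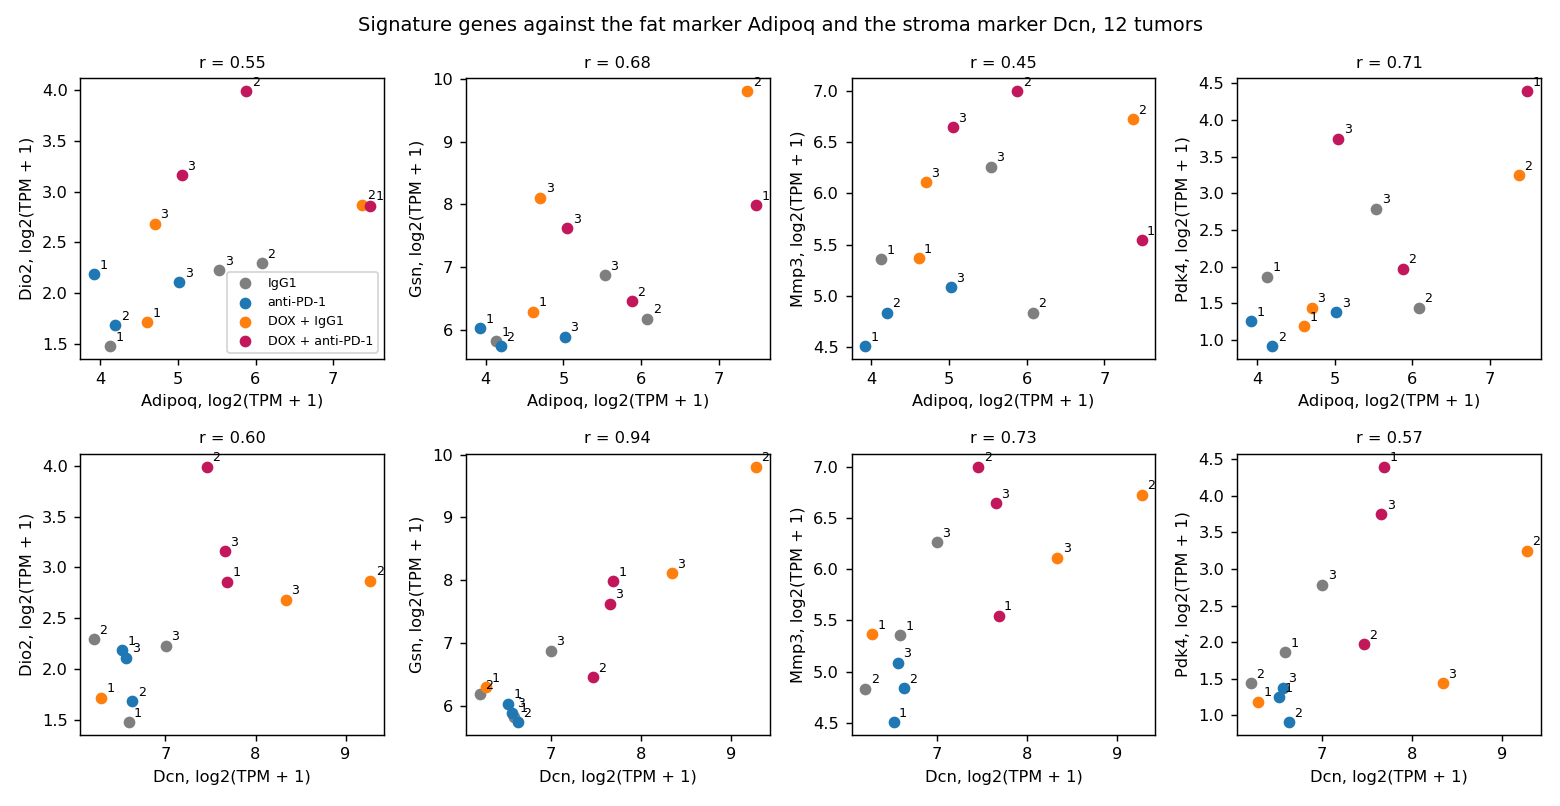
Level of each signature gene (vertical axis) against Adipoq (upper row) and Dcn (lower row), both as log2(TPM + 1), in 12 tumors coloured by group and numbered by replicate, with Pearson's r above each panel. The tumors lie closest to a line for Gsn and Dcn (r = 0.94), and in the panels with Adipoq DOX + IgG1 replicate 2 and DOX + anti-PD-1 replicate 1 lie far to the right.

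The correlations among the 4 genes differed between pairs and between sets of tumors. Over 12 tumors the Pearson correlations among them lay between 0.50 for Dio2 and Gsn and 0.75 for Dio2 and Mmp3, values to which the choice of the genes contributes. By Spearman's rho the order differed, from 0.69 for Mmp3 and Pdk4 to 0.78 for Dio2 and Gsn. Centred on the group means, Gsn and Pdk4 had r = 0.84 and Dio2 and Mmp3 had r = 0.61, while Dio2 and Pdk4 had r = -0.07, Mmp3 and Pdk4 0.16, Gsn and Mmp3 0.37 and Dio2 and Gsn 0.38. Among the DOX + anti-PD-1 tumors, replicate 2 was the highest for Dio2 and Mmp3 and the lowest for Gsn and Pdk4, and replicate 1 was the reverse. In the 6 tumors of IgG1 and DOX + IgG1 all 6 correlations were positive, from 0.46 for Dio2 and Pdk4 to 0.86 for Dio2 and Gsn. These correlations are descriptions without a test.

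**Figure D4:**
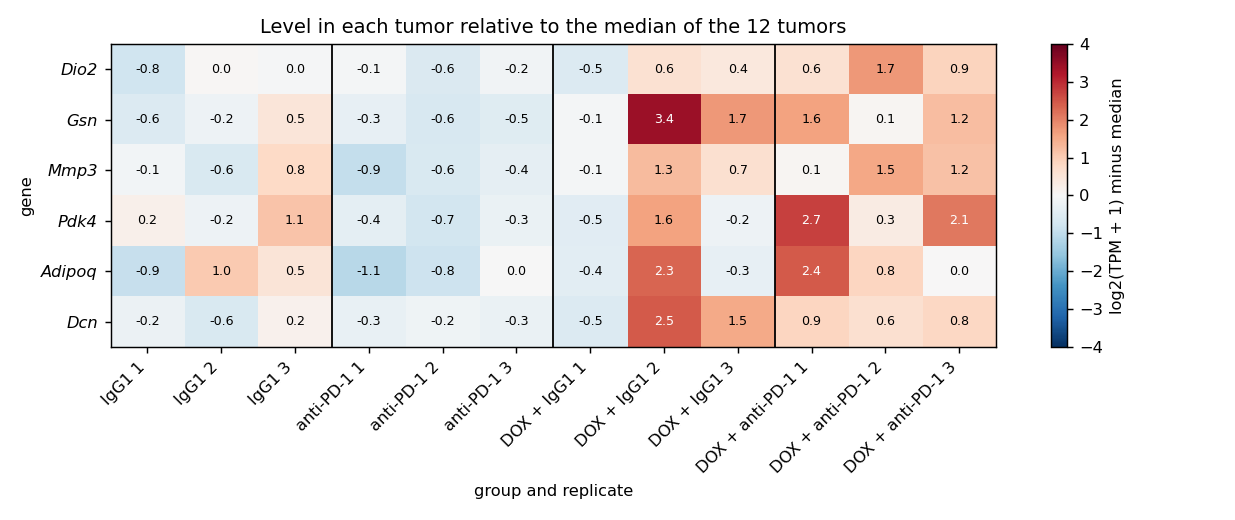
Level of each gene (rows) in each tumor (columns) as the difference of log2(TPM + 1) from the gene's median over the 12 tumors, printed in each cell, with groups parted by lines. In DOX + anti-PD-1, replicate 2 is highest for Dio2 and Mmp3 and replicate 1 for Gsn and Pdk4, and DOX + IgG1 replicate 1 is below the median for each gene.

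The genes most like each member were named by their Pearson correlation over the 12 tumors. For Gsn these were Cdo1 (r = 0.96), the cysteine dioxygenase, Aoc3 (0.94), an amine oxidase of fat and smooth muscle cells, and Syde1 (0.94). For Mmp3 they were Nek9 (0.94), Kdm5d (0.92) and Bgn (0.92), the matrix proteoglycan biglycan. Kdm5d is on the Y chromosome and had 0.20 to 1.46 TPM in these tumors of females, while the Y-linked Ddx3y and Eif2s3y were listed at 0 in all 12 and Uty in all but anti-PD-1 replicate 1 (0.68 TPM), and its X-linked relative Kdm5c had 50.5 to 104 TPM, so reads assigned to Kdm5d are uncertain. For Pdk4 they were Fitm1 (0.95), a lipid droplet protein of muscle that was listed at 0 in 8 of the 12 tumors, Hic1 (0.92) and Stard7 (0.91). For Dio2 they were Zfp521 (0.92), Ryr3 (0.92), a calcium release channel, and Tecpr2 (0.92). Ryr3 was low, at 0 TPM in anti-PD-1 replicate 1 and DOX + IgG1 replicate 1 and highest in DOX + anti-PD-1 replicate 2 (5.81 TPM). No gene was among the 3 most like for more than 1 member. By the mean of the 4 correlations the leading genes were Adcy4 (0.77), Pink1 (0.77), Tecpr2 (0.77), Mmd2 (0.76), Sh2b3 (0.76), Hk2 (0.75), Nid1 (0.75), Slc36a2 (0.75), Plau (0.74) and Efhd1 (0.74). Of these, Mmd2 and Efhd1 were at 0 TPM in anti-PD-1 replicate 1 and DOX + IgG1 replicate 1, among others. Dcn had a mean of 0.71, with 34 of 14731 genes above it, and Adipoq one of 0.60, with 478 above it.

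Deiodinases and kinases of the same families were given next to the members. Dio1, which also activates thyroid hormone, was listed at 0 in all 12 tumors, and Dio3, which inactivates it, reached at most 1.12 TPM, so that Dio2 was the main deiodinase transcript by TPM. Among 15 genes of the thyroid hormone pathway, 12 were tested in DOX + IgG1 against IgG1, with 5 higher, 7 lower, 0 called and a median log2 fold change of -0.03, beside 0.12 over all genes tested. Of all 13874 genes tested in this comparison, 8407 were higher and 5467 lower, and the counts of each list below stand beside these. The largest differences were those of Crym, a thyroid hormone binding protein (1.19, SE 0.57), and the receptor Thra (1.04, SE 0.38, adjusted p = 0.574 with limma), and Thrsp was the most abundant gene (-0.69, SE 0.38). For Thra the levels were 48.9 to 66.8 TPM (IgG1) and 63.4, 179 and 159 TPM (DOX + IgG1). DOX + IgG1 replicate 1 was the nearest to IgG1 for Thra and the farthest for Crym (4.98 TPM, against at most 0.77 TPM in IgG1).

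Of the 4 pyruvate dehydrogenase kinases Pdk4 was the least abundant on average (5.08 TPM) and the most variable. Pdk1 lay between 17.7 and 46.6 TPM, Pdk2 between 18.7 and 45.8 TPM and Pdk3 between 7.18 and 57.6 TPM. Their log2 fold changes in DOX + IgG1 against IgG1 were 0.04 (SE 0.32), 0.07 (SE 0.31) and 0.51 (SE 0.46), and in DOX + anti-PD-1 against anti-PD-1 -0.03 (SE 0.38), 0.72 (SE 0.29) and -0.44 (SE 0.48). All 16 genes of the pathway were tested in DOX + IgG1 against IgG1, with 11 higher, 5 lower, 0 called and a median of 0.19. Ldha was the most abundant (-0.38, SE 0.28), and Mpc1, a subunit of the mitochondrial pyruvate carrier (0.81, SE 0.27), the phosphatase Pdp1 (0.77, SE 0.42) and its regulator Pdpr (0.69, SE 0.36) had the largest differences. Among 16 target genes of PPAR, FOXO and the glucocorticoid receptor, factors known to induce Pdk4, 11 were higher, 5 lower and 0 called, with a median of 0.22. Txnip was the most abundant (0.60, SE 0.49), and Cpt1b, the muscle-type carnitine palmitoyltransferase (-1.53, SE 0.61), and Cpt1a (0.67, SE 0.24) had the largest differences beside it.

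Of 14 genes of the gelsolin and actin severing family, 13 were tested in DOX + IgG1 against IgG1, with 12 higher, 1 lower, 0 called and a median of 0.23. Over all genes 8407 of 13874 were higher there, with a median of 0.12. Gsn had the largest difference, followed by the gelsolin relatives Svil (1.17, SE 0.32, adjusted p = 0.469 with limma) and Vill (0.83, SE 0.31), and Dstn was the most abundant (0.56, SE 0.27). Svil had 117, 126.5 and 160.0 TPM (IgG1) against 199, 292.5 and 468 TPM (DOX + IgG1), without overlap. It was the 1 gene of the 13 that lay higher without overlap, near the share over all genes (9.31%). The relatives Scin (0.45, SE 0.39), Capg (0.06, SE 0.35), Flii (0.19, SE 0.23) and Vil1 (0.09, SE 0.68) differed by less or little more than their SE, and Avil was below the minimum level for testing.

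Among 19 matrix metalloproteases, plasmin activators and inhibitors, 16 were tested in DOX + IgG1 against IgG1, with 13 higher, 3 lower, 0 called and a median of 0.57. All 3 DOX + IgG1 tumors lay above all IgG1 tumors for 3 of the 16, beside 9.31% of all 13874 genes, among them Timp3, the most abundant gene of the list, with 376, 176 and 344 TPM (IgG1) against 683, 787 and 768 TPM (DOX + IgG1) (1.39, SE 0.31, adjusted p = 0.460 with limma). Mmp9 (1.79, SE 0.70) and the macrophage elastase Mmp12 (1.10, SE 0.37) had the other large differences. The stromelysin Mmp10 was listed at 0 in 9 of 12 tumors and reached at most 0.95 TPM, and Mmp11 lay between 0 and 7.68 TPM, so that Mmp3 was the most abundant of the 3 stromelysins. DOX + anti-PD-1 tumors had 12 of 16 genes of this list lower than DOX + IgG1 tumors, with a median of -0.43, beside -0.04 over all genes, and Mmp3 had 0.33 (SE 0.45). Against anti-PD-1 tumors they had 12 of 15 higher (median 0.68, beside 0.11), 6 of them without overlap and 2 lower without overlap, beside 11.1% and 3.84% of all genes. Mmp3 is counted among the 12 and the 6, and it was chosen as higher in this comparison. In anti-PD-1 against IgG1 13 of 15 were lower (median -0.44, beside -0.03), 4 of them without overlap, beside 6.24% of all genes.

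Markers of fat, stroma and muscle were uneven between the tumors. The 17 adipocyte genes summed to 276, 748 and 822 TPM (IgG1), 417, 322 and 459 TPM (anti-PD-1), 462, 2241 and 505 TPM (DOX + IgG1) and 1791, 672 and 786 TPM (DOX + anti-PD-1). The 2 tumors with the highest sums were those that were also highest for Adipoq. Car3 was the most abundant of these genes, and none was at 0 in all tumors, although Retn and Lep were listed at 0 in IgG1 replicate 1. In DOX + IgG1 against IgG1, 15 of 17 were higher and 0 were called, with a median of 0.48 beside 0.12 over all genes. Of the 17, 0 lay higher without overlap, beside 9.31% of all 13874 genes. Retn (1.53, SE 1.16), Plin4 (1.21, SE 0.74) and Cd36 (1.15, SE 0.80) had the largest differences. In DOX + anti-PD-1 against anti-PD-1 17 of 17 were higher, with a median of 1.37 beside 0.11 over all genes, and 11 of them lay higher without overlap, beside 11.1% of all 13736 genes. In anti-PD-1 against IgG1 15 of 17 were lower, with a median of -0.53 beside -0.03 over all genes. Of these, 0 lay lower without overlap, beside 6.24% of all 13692 genes. The part of fat in the levels of the 4 genes was not tested beyond the correlations given.

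The 15 fibroblast and stroma genes summed to 1819, 1927 and 3076 TPM (IgG1), 1656, 1428 and 1282 TPM (anti-PD-1), 942, 2521 and 1894 TPM (DOX + IgG1) and 1814, 2318 and 2176 TPM (DOX + anti-PD-1). The sum did not follow Dcn, because Postn, the most abundant gene, and Col1a1 were lower on average in DOX + IgG1 than in IgG1 (-1.06, SE 0.31, and -1.20, SE 0.35), while Dcn was higher (1.37, SE 0.65). Of the 15 genes, 9 were higher and 6 lower there, 0 were called and the median was 0.03, and 0 lay higher without overlap and 2 lower, beside 9.31% and 4.64% of all genes. In DOX + anti-PD-1 against anti-PD-1 15 of 15 were higher, with a median of 0.65 beside 0.11 over all genes, and 6 of them lay higher without overlap, beside 11.1% of all genes. In anti-PD-1 against IgG1 14 of 15 were lower, with a median of -0.37 beside -0.03 over all genes. Of these, 4 lay lower without overlap, beside 6.24% of all genes. The median correlation of the 15 genes with Gsn over 12 tumors was 0.48, that of the adipocyte genes 0.71 and that of all genes 0.14, and for Mmp3 the medians were 0.58, 0.45 and 0.16. For Pdk4 they were 0.49, 0.68 and 0.05, and for Dio2 0.53, 0.51 and 0.17. With the pericyte and smooth muscle list they were 0.66 for Gsn, 0.59 for Mmp3, 0.50 for Pdk4 and 0.38 for Dio2. Among all 14 lists the median was highest with the adipocyte list for Gsn and Pdk4. For Mmp3 it was similar with the stroma, pericyte, basal (0.57) and leukocyte (0.56) lists. The part of stroma in these levels was not tested.

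**Figure D5:**
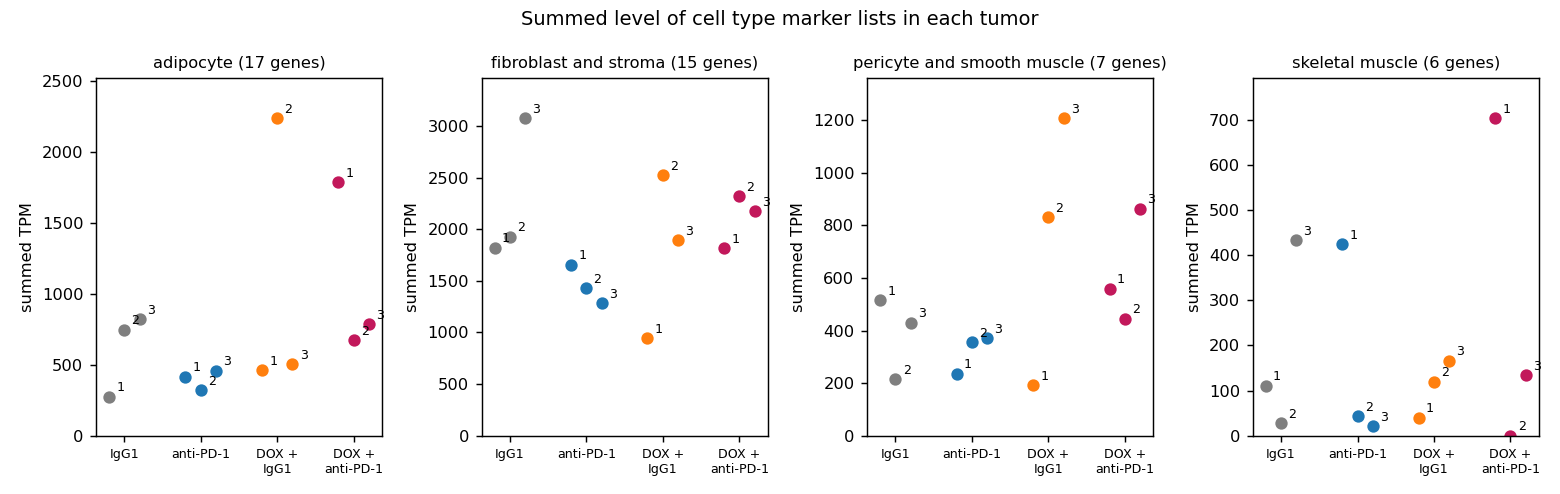
Summed TPM of the marker lists for adipocytes, fibroblasts and stroma, pericytes and smooth muscle, and skeletal muscle (vertical axes, from 0) in each tumor by group, numbered by replicate. The adipocyte sum is highest in DOX + IgG1 replicate 2 (2241 TPM) and DOX + anti-PD-1 replicate 1 (1791 TPM), and the skeletal muscle sum is highest in the latter (703 TPM).

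The 7 pericyte and smooth muscle genes, led by Acta2, summed to between 192.5 TPM in DOX + IgG1 replicate 1 and 1208 TPM in DOX + IgG1 replicate 3, and 7 of 7 were higher in DOX + IgG1 than in IgG1, with 0 called and a median of 0.41. The largest were Tagln (0.99, SE 0.52), Acta2 (0.65, SE 0.71) and Myh11 (0.53, SE 0.91). The 6 basal and myoepithelial genes, led by Oxtr, summed to between 79.1 and 275 TPM, and 5 of 6 were higher, with 0 called, a median of 0.21 and Mylk the largest (1.04, SE 0.77). The 8 luminal genes, led by Epcam, summed to between 2358 and 4265 TPM, and 6 were lower, with 0 called, a median of -0.23, Epcam at -0.87 (SE 0.23, adjusted p = 0.469 with limma), Elf5 at -0.68 (SE 0.32) and Krt19 at 0.65 (SE 0.62), the latter with 302, 1261 and 1801 TPM in DOX + IgG1 replicates 1, 2 and 3. Of the 6 endothelial genes, led by Pecam1, 5 were lower and 0 called, with a median of -0.14 and Cdh5 the largest, with 26.9, 21.8 and 23.1 TPM (IgG1) against 16.0, 16.0 and 5.70 TPM (DOX + IgG1). Of the 8 leukocyte genes, led by Ptprc, 6 were tested, 4 were higher and 0 called, with a median of 0.16. Calls were rare over all genes as well (0.036%), so the counts of 0 say little about these lists. The median correlation of the luminal genes with the 4 members lay between -0.14 and -0.03.

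Marker genes of skeletal muscle and brown fat, tissues in which Pdk4 or Dio2 are well known, differed in level between the tumors. The 6 skeletal muscle genes, led by Acta1, summed to 703, 0 and 134 TPM in the DOX + anti-PD-1 group, in the order 1, 2 and 3 in which Pdk4 had 20.0, 2.92 and 12.4 TPM. IgG1 replicate 3 and anti-PD-1 replicate 1 had 432 and 425 TPM of muscle genes, with 5.90 and 1.38 TPM of Pdk4. In DOX + IgG1 against IgG1 4 of the 6 genes were lower and 0 called, with a median of -0.63 and Tnnt3 the largest (-2.16, SE 1.18). The 7 brown adipocyte genes, led by Cox8b, summed to between 4.67 and 86.4 TPM, the highest in DOX + anti-PD-1 replicate 1, which also had 26.4 TPM of the defining marker Ucp1, and in the same comparison 5 were tested, 3 were higher and 0 called, with a median of 0.12. Ucp1 was listed at 0 in 9 tumors, among them DOX + anti-PD-1 replicate 2, which had the highest Dio2. The part of muscle in the level of Pdk4 was not tested.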

How the data were processed

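RNA of 12 whole tumors was sequenced from 1 end after preparation with a stranded SMARTer kit. The submitters' processing notes name STAR, RSEM and the build mm10, with versions not given in the sources used here. The authors deposited log2 values of TPM after adding 1, for 21960 genes per tumor, and the values alone do not prove the unit. Identifiers were matched to GENCODE on GRCm38 for 21860 genes. TPM keep no counts, so depth and counting error are unknown. Groups came from the labels. Genes that reached 1 TPM in 3 or more of the 6 tumors were tested with limma 3.58.1 (R 4.3.3), with a mean-variance trend on log2(TPM + 1), two-sided, and Benjamini-Hochberg adjustment over all genes. Correlations used 100000 resamples, or all permutations below 10 tumors and within groups. The fits were tested on simulated data. Named genes were the members, the markers, their paralogs, the 3 genes most like each member, the 10 most like all 4, and of each list its most abundant gene and the up to 3 with the largest change in DOX + IgG1 against IgG1. The members and lists were chosen with earlier results of these data known. Alternatives changed the pseudocount, filter, scaling, samples and block.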

Additional observations from a re-analysis of the deposited data

How the results depend on the processing

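For the 4 genes in DOX + IgG1 against IgG1, 0 were called under another pseudocount, no filter, scaling by the median of ratios, a fit on 12 tumors or the replicate block. With a minimum mean of 5 TPM, Dio2 and Pdk4 were not tested. Scaling moved the median log2 fold change of all genes from 0.12 to 0.01 and the value of Gsn to 1.66, and the 4 genes kept their signs. Leaving out 1 tumor at a time gave 0.16 to 0.78 for Dio2, 0.91 to 2.66 for Gsn, 0.25 to 0.97 for Mmp3 and -0.71 to 0.31 for Pdk4, and all changes of sign were those of Pdk4, without IgG1 replicate 3 (0.31), DOX + IgG1 replicate 1 (0.31) or DOX + IgG1 replicate 3 (0.19). Gsn was called without DOX + IgG1 replicate 1 (2.66). The number of genes called, 5, was 3 with a mean of at least 5 TPM and between 0 and 113 with 1 tumor left out. It was 0 with limma without each IgG1 tumor, with 944, 721 and 951 genes at an unadjusted p below 0.05.

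The labels do not say that tumors with the same number are paired. Deviations from the group means of same-numbered IgG1 and DOX + IgG1 tumors correlated with r = 0.125, 0.00339 and 0.106, and not every tumor correlated best with its own number. With the replicate block 2 genes were called.

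Centred on group means, Gsn with Adipoq (r = 0.66) and Dcn (0.90), Mmp3 with Dcn (0.61) and Pdk4 with Adipoq (0.58) no longer passed an adjusted p of 0.05. Without the 2 farthest tumors, Gsn (0.22) and Pdk4 (0.34) with Adipoq did not pass, while Dio2 (0.77) and Pdk4 (0.85) with Dcn passed, which supports nothing, because DOX + anti-PD-1 is then the only group high in Dcn and the genes were chosen as high in it. By Spearman's rho over the 12 tumors, Dio2 with Adipoq (0.72) and Dcn (0.62) and Pdk4 with Dcn (0.67) passed, but 6 of these tumors chose the genes. By rho in the 6 tumors of IgG1 and DOX + IgG1 these relations did not pass (exact permutation, adjusted p = 0.156, 0.322 and 0.311). Centred on group means they did not pass by rho either (exact permutation within groups, adjusted p = 0.381, 0.725 and 0.157). In the 9 tumors of 1 header suffix, a setting added after the data were seen, Dio2 with Adipoq (0.70) and Dcn (0.78) and Pdk4 with Dcn (0.65) passed, but these tumors include the 3 anti-PD-1 tumors against which the genes were chosen, so passing partly restates that choice. With 1 tumor left out, r was 0.48 to 0.62 for Dio2 with Adipoq and 0.55 to 0.73 with Dcn, 0.50 to 0.78 for Gsn with Adipoq and 0.88 to 0.96 with Dcn, 0.31 to 0.59 for Mmp3 with Adipoq and 0.70 to 0.79 with Dcn, and 0.55 to 0.83 for Pdk4 with Adipoq and 0.53 to 0.72 with Dcn. The adjusted p then crossed 0.05 for Dio2 with Dcn (0.0228 to 0.109), Gsn with Adipoq (0.0121 to 0.128), Pdk4 with Adipoq (0.00936 to 0.0806) and Pdk4 with Dcn (0.0212 to 0.122). No correlation changed sign in these settings, and the cause of the changes was not tested.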
